A study of Mus musculus with 6 samples.

Results

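The coagulation and complement genes examined here were 43 genes for blood clotting and complement proteins, most of them made by the liver. FXR peaks were collected by name: a peak belonged to the group when the deposited nearest-gene annotation of either peak table gave 1 of the 43 symbols. The whole annotation held 21887 protein-coding genes. The group took 95 of 20040 peaks in the control table and 48 of 12495 peaks in the knockout table. The study used FXR ChIP-seq on male C57BL/6 mouse liver of 2 genotypes, and each genotype had 2 ChIP libraries beside 1 input (chromatin that was not immunoprecipitated). Control mice, written WT, were Bcl6fl/fl and carried loxP-flanked Bcl6 alleles without Cre. Knockout mice, written LKO, were Bcl6LKO and carried the same floxed alleles with Albumin-Cre, which removes Bcl6 in hepatocytes and leaves it in other liver cells. The labels name no agent, the age of the animals was not given in the sources used here, and the peak tables hold no readout of Bcl6 deletion or of gene expression.

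Clotting proteins circulate as precursors. The contact system (F12, F11, plasma kallikrein and the kininogens) and tissue factor lead to thrombin, which turns fibrinogen into fibrin, and plasmin later removes the clot. Complement is a second set of plasma proteases that is started by antibody, by sugar-binding lectins or by spontaneous C3 turnover, and that ends in the membrane attack complex. FXR is a bile acid-activated nuclear receptor of hepatocytes and enterocytes, and fibrinogen and kininogen genes are known FXR targets. It binds an inverted repeat of the half-site AGGTCA with 1 spacer base, called IR1. BCL6 is a transcriptional repressor, and the comparison asks whether FXR binding at these genes differs when hepatocytes lack it.

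WT replicate 2 held 2883717 tags, against 19022618 to 22637613 tags in the other 3 ChIP libraries, and the inputs held 6935001 and 6964271 tags. Because the peak caller was run on pooled libraries of a genotype, peak counts carry no replicate spread, and 86.8% of the WT pool came from replicate 1. Levels are given as relative level: the deposited log2 value of a library minus the median of that library over all 9918 shared peaks, so that 0 is a typical shared peak. Nominally 1 unit is a doubling, but the transform behind these values draws weak peaks together, so that their differences can be understated. A peak was shared when a peak of the other table overlapped it by at least 1 bp. The tables were normalized separately, so levels were described side by side and no difference between genotypes was tested. Each library title carries an identifier of its own, but the labels do not say whether the 2 libraries of a genotype came from separate mice, and the spread between them may be technical. Intervals on shares are 95% Wilson intervals and cover counting error only, and neighbouring genes that share a locus are not independent.

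Counting a shared pair once, 3 peaks of the group held an IR1 match with at most 1 mismatch among the 12 scored bases. They are shown because they carry the motif most completely. They lie at Fcna (chr2:25628727-25628937, WT), at Fgb (chr3:83038982-83039192, WT) and in the first intron of F7 (chr8:13027411-13027615, LKO). Fcna and Fgb held the match in both tables. Such a match was in 2 of 95 member WT peaks (2.11%, 0.579 to 7.35%), against 2.46% of all WT peaks. In LKO it was 3 of 48 (6.25%, 2.15 to 16.8%), against 3.55%. Sequences are the plus strand of GRCm38.p6, which has the coordinates of mm10, and capitals mark every match with at most 3 mismatches.
Fcna: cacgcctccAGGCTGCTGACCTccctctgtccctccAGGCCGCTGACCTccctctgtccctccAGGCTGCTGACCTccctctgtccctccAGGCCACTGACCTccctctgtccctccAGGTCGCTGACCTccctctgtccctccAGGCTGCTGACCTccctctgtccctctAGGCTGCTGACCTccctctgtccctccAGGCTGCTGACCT
Fgb: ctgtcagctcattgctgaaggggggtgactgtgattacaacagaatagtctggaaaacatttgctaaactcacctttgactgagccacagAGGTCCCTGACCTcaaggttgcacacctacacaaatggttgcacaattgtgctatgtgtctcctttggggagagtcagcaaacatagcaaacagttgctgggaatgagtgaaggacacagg
F7: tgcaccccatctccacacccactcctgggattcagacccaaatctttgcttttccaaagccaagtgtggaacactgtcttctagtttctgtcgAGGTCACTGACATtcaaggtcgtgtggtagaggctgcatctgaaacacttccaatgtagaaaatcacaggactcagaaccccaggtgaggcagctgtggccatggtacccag

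The Fcna sequence is a tandem repeat. Its unit was 27 bp, and 92.4% of the bases in the peak equalled the base 1 unit further on. Each of the 8 capitalized matches sits in its own copy, 27 bp from the next. Of these 8, 2 had 1 mismatch, and 3 had at most 2 mismatches. The repeat covered 257 bp, chr2:25628727-25628983. At least 80% equal bases at a period of 10 to 60 bp were found in 10 of 20040 WT peaks (0.0499%) and in 3 of 12495 LKO peaks (0.0240%), and Fcna was the 1 member among them in each table. The repeat was noticed after the sequence was printed. Per the methods of the study, uniquely aligned reads were kept, and how alignment inside the repeat shaped the tags was not tested. By contrast, the Fgb and F7 sequences each held 1 match.

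Most of the 43 genes had an FXR peak. At least 1 WT peak was named to 39 genes, or 90.7% (78.4 to 96.3%), against 35.1% of all protein-coding genes. LKO peaks were named to 29 genes, or 67.4% (52.5 to 79.5%), against 26.8% of all genes. A WT peak and an LKO peak overlapped at 28 genes, or 65.1% (50.2 to 77.6%), against 23.2%. Promoter peaks, those annotated as close to a transcription start site, were named to 24 genes in WT (background 9.28%) and to 16 genes in LKO (background 5.83%). The 43 genes were chosen with earlier results of these data known, which the intervals do not cover. The background holds many genes that the liver does not express, and expression was not in the files. F9, F8, Thbd and C5ar1 had no peak in either table. F9 encodes clotting factor IX, F8 the cofactor factor VIII that is made mainly by endothelial cells, Thbd the endothelial receptor thrombomodulin and C5ar1 a receptor of myeloid cells.

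**Figure D1:**
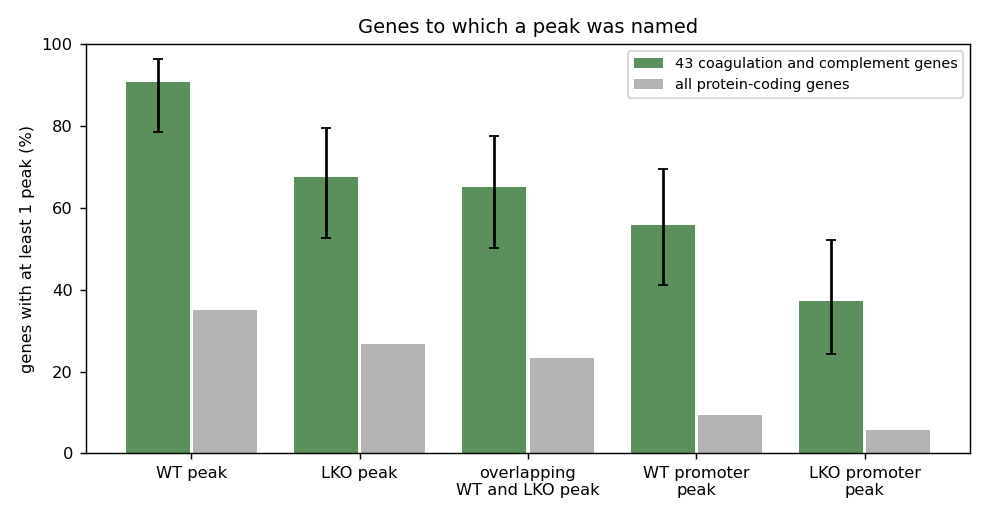
Share of genes with at least 1 peak (%), for the 43 coagulation and complement genes (green, error bars are 95% Wilson intervals) and for all protein-coding genes (grey). The members stand at 90.7% for WT peaks and 67.4% for LKO peaks, against 35.1% and 26.8% of all genes.

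At 10 genes there were WT peaks and no LKO peak: F12, F11, F3, F13b, C1s1, C2, C4bp, Mbl2, Cfd and C9. They made up 25.6% (14.6 to 41.1%) of the 39 member genes with a WT peak, and over all genes with a WT peak the share without an LKO peak was 30.4%. No member had an LKO peak without a WT peak, against 8.91% of all genes with an LKO peak, which lies inside the interval of 0 of 29 members (up to 11.7%). The 23 WT peaks of those 10 genes were weak, with a median strength percentile of 23.7 among all WT peaks and a highest of 68.1. All WT peaks without an overlapping LKO peak were weak too, with a median percentile of 29.8. The tables differ in length. The WT table was then cut to its 12495 strongest peaks, a comparison added after seeing the data. With this cut 31 member genes had a WT peak (26% of all genes) and 29 had an LKO peak (26.8% of all genes). The overlapping count was 25, and its share over all genes was not computed under this cut.

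The typical member peak was of ordinary strength in both tables. Their median strength percentile was 53.4 in WT and 55.8 in LKO. The strongest 1% of all WT peaks held 3 of 95 member peaks (3.16%, 1.08 to 8.88%). The strongest 1% of LKO peaks held 3 of 48 (6.25%, 2.15 to 16.8%). These were the peaks at Fcna, C3 and Fgb in both tables. Member peaks lay close to start sites. The median distance was 3088 bp in WT and 2825 bp in LKO, against 13906 and 14093 bp over all peaks, and 27.4% of member WT peaks were at promoters against 11.4% of all.

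Of the 95 member WT peaks, 41 were overlapped by an LKO peak (43.2%, 33.7 to 53.2%), against 49.5% of all WT peaks. The same 41 pairs made up 85.4% (72.8 to 92.8%) of the member LKO peaks, against 79.4% of all LKO peaks. Both member intervals held the value of all peaks. Overlap went with strength. Above percentile 75 of the WT table, 25 of 26 member peaks were overlapped (96.2%, 81.1 to 99.3%), and all such peaks stood at 90.3%. Under the WT median it was 7 of 45 (15.6%, 7.75 to 28.8%), against 23.5% of all. That left 54 member peaks in the WT table only and 7 in the LKO table only.

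**Figure D2:**
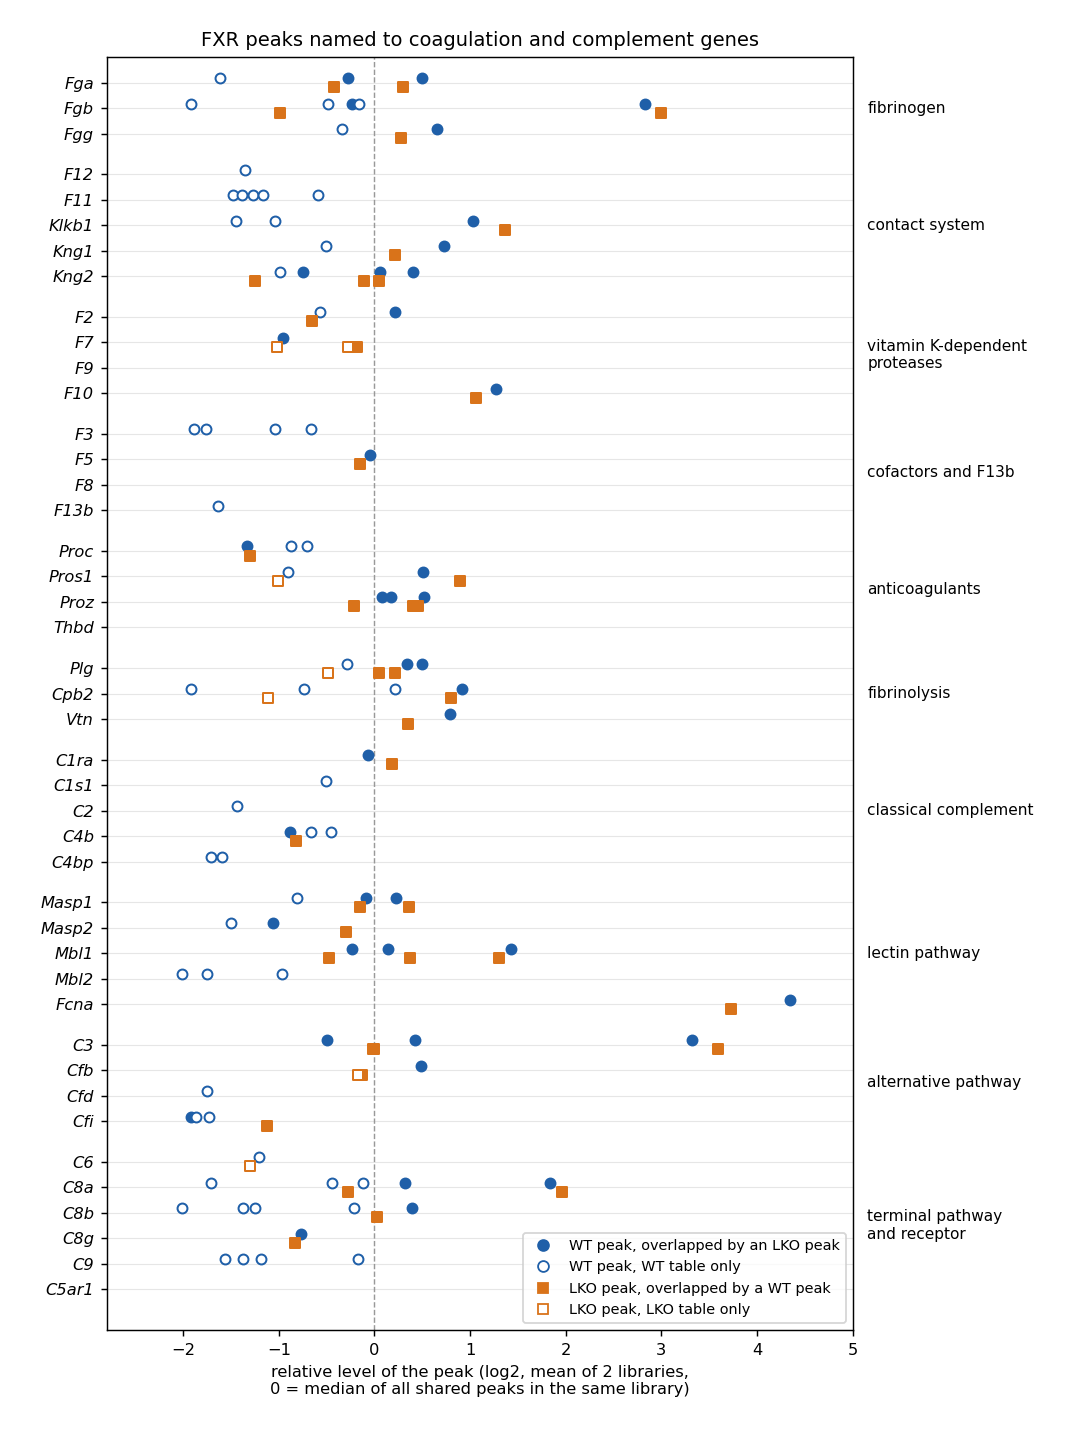
Relative level (log2, mean of 2 libraries) of every member peak, by gene and role. Circles are WT and squares are LKO, filled when the other table holds an overlapping peak. Peaks at Fcna, C3 and Fgb lie farthest to the right, and most open symbols lie left of 0.

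Fibrinogen is the soluble precursor of fibrin, and its 3 chains are encoded side by side by Fgg, Fga and Fgb. The locus held 10 WT peaks and 5 LKO peaks, and every LKO peak was shared. WT and LKO peaks numbered 3 and 2 at Fga, 5 and 2 at Fgb, and 2 and 1 at Fgg. The strongest was the IR1-bearing peak printed above. It is annotated as intergenic and named to Fgb, and its centre lies 5460 bp beyond the 3′ end of Fga and 3159 bp beyond the 3′ end of Fgb. Its relative level was 2.66 and 3.0 in the WT libraries and 2.99 and 3.01 in the LKO libraries, rank 109 of 9918 shared peaks. The groups overlapped, with means of 2.83 ± 0.24 and 3.0 ± 0.01 (SD, n = 2 each). A peak 5.6 kb upstream of Fga stood at 0.44 and 0.55 in WT and at 0.50 and 0.10 in LKO, again overlapping. The peak 4396 bp upstream of Fgg stood at 0.57 and 0.72 against -0.14 and 0.69. There the WT input was also high, at 2.65 on the deposited log2 scale where the 95th percentile of WT peaks was 1.85, and its part in the level was not tested. At the promoters, Fga had a shared peak (-0.61 and 0.05 in WT, -0.16 and -0.70 in LKO). The Fgb and Fgg promoter peaks were in the WT table only, at -0.48 and -0.50 for Fgb and at -0.31 and -0.36 for Fgg.

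**Figure D3:**
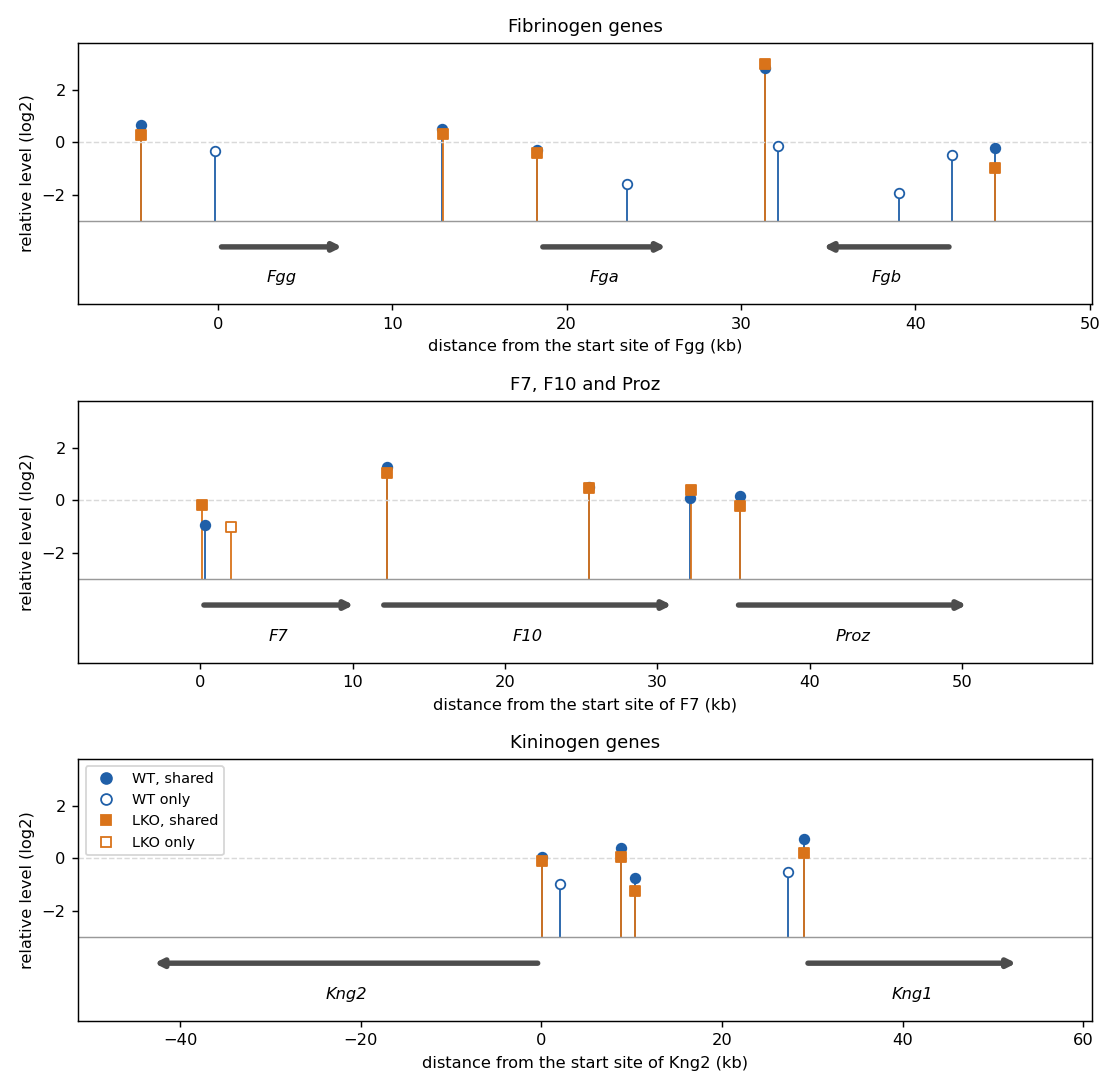
Member peaks along 3 loci, by distance in kb from the start site of Fgg, F7 or Kng2. Height is the relative level (log2, mean of 2 libraries), circles are WT, squares are LKO, open symbols are peaks of 1 table, and arrows are RefSeq genes. The Fgb-named peak at 2.83 in WT and 3.0 in LKO stands between the ends of Fga and Fgb.

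The contact system had 15 WT peaks over its 5 genes and 5 LKO peaks over 3 of them, all shared. Klkb1 had 3 in WT and 1 in LKO, Kng1 had 2 and 1, and Kng2 had 4 and 3. Klkb1 encodes plasma prekallikrein. Its strongest peak lies in intron 6 of 14 (chr8:45281718-45281928), and holds an IR1 match with 2 mismatches. It stood at 1.12 and 0.94 in WT and at 1.17 and 1.56 in LKO, so both LKO values were above both WT values, by 0.34 on average. Kng1 encodes kininogen, the precursor of bradykinin. At its promoter WT stood at 0.25 and 1.2 and LKO at 0.21 and 0.23. Both LKO values were lower, and the margin to WT replicate 1 was small. Kng2, a second kininogen gene next to Kng1 and close to it in sequence, had a promoter peak at 0.30 and -0.19 in WT and at -0.28 and 0.05 in LKO. The strongest shared Kng2 peak, 8868 bp upstream, stood at 0.67 and 0.13 in WT and at -0.19 and 0.28 in LKO, which overlapped. A weaker Kng2 peak 10364 bp upstream stood at -0.89 and -0.62 against -1.27 and -1.24, lower in both LKO libraries. Reads of such pairs can be hard to assign. F11 (factor XI) had 5 WT peaks, the strongest at percentile 53.4, and F12 (factor XII, which starts the contact pathway) had 1, and neither had an LKO peak. One of the F11-named peaks lies inside Klkb1, the neighbouring gene.

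The vitamin K-dependent proteases act in sequence from factor VII to factor X to thrombin. F10 (factor X) had 1 peak in each table (chr8:13037658-13037868), annotated to the 5′ untranslated part of exon 2 of 9, 455 bp from the start site. Its levels were 1.36 and 1.19 in WT and 1.27 and 0.85 in LKO and overlapped. F2 encodes prothrombin and had 2 WT peaks and 1 LKO peak, both WT peaks being at the promoter. The shared one showed the lowest difference of all 41 member pairs. WT stood at 0.23 and 0.19 and LKO at -1.29 and -0.02, a difference of -0.87 with a wide gap between the LKO libraries. The promoter peak of F7 lay the other way, at -0.58 and -1.32 in WT and at -0.28 and -0.09 in LKO, a difference of 0.77. The WT and LKO windows there share only 49 bp, with centres 159 bp apart, the widest distance of the member pairs, and do not overlap by 50% of each, so the values come from largely different bases. F7 had 1 WT peak and 3 LKO peaks, among them 2 of the 7 LKO-only peaks. One lies 27529 bp upstream, inside another gene, and the other is the IR1-bearing intron 1 peak printed above, which was weak, at -0.98 and -1.07.

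Among the cofactors, F5 (factor V) had 1 promoter peak in each table, at -0.59 and 0.49 in WT and at -0.09 and -0.21 in LKO, which overlapped. F3 encodes tissue factor, the cell-surface trigger of clotting. Its 4 peaks were all in the WT table only, with the strongest at percentile 50.6. F13b, the carrier subunit of fibrin-crosslinking factor XIII, had 1 WT-only promoter peak at percentile 15.1.

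Protein C, protein S and protein Z are plasma anticoagulants. Pros1 (protein S) had 2 peaks in each table, and only 1 pair was shared. Its LKO-only peak, 154446 bp past the start site, was weak, at percentile 11.5. The shared peak, its strongest, lies in intron 12 of 14 and stood at 0.98 and 0.04 in WT and at 0.84 and 0.96 in LKO. WT replicate 2, the shallow library, stood apart there and the groups overlapped. Proz (protein Z) had 3 peaks in each table, all shared. The one 9877 bp upstream stood at 0.24 and 0.79 against 0.62 and 0.30, and lies inside F10. That at 3296 bp upstream, at the end of F10, stood at 0.18 and -0.02 against 0.58 and 0.21, with both LKO values higher. The Proz promoter peak overlapped between genotypes, at 0.26 and 0.08 against -0.55 and 0.12. Proc (protein C) had 3 WT peaks and 1 LKO peak, and its shared pair was weak, at -1.64 and -1.04 against -1.52 and -1.09.

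Plasminogen, encoded by Plg, is the precursor of plasmin, and Plg had 3 peaks in each table. Its peak in intron 3 of 18 stood at 0.47 and 0.21 in WT and at -0.11 and 0.53 in LKO and overlapped. In intron 1 the levels were 0.40 and 0.58 against -0.11 and 0.20, and both LKO values were lower. Plg had a promoter peak in each table that did not overlap, 97 bp upstream in WT and 346 bp upstream in LKO. Cpb2 encodes a carboxypeptidase that slows plasmin formation, and had 4 WT peaks and 2 LKO peaks. The peak 5056 bp upstream of it overlapped between genotypes, at 0.92 and 0.91 in WT and at 0.65 and 0.94 in LKO. A Cpb2 intron 1 peak, 8266 bp past the start, had the highest mean relative level of the member peaks found in 1 table only, at -0.25 and 0.68 in WT, with the high value in the shallow WT replicate 2. By Peak Score (pooled tags per 10000000) it stood at 35.1, below the WT-only peaks of C8a at 42.9 and Fgb at 37.9. Vtn encodes vitronectin, which binds the inhibitor of plasminogen activators and blocks the terminal complement complex. Its single peak in each table, at the promoter, stood at 0.63 and 0.96 in WT and at 0.31 and 0.39 in LKO, lower in both LKO libraries with a mean difference of -0.44.

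**Figure D4:**
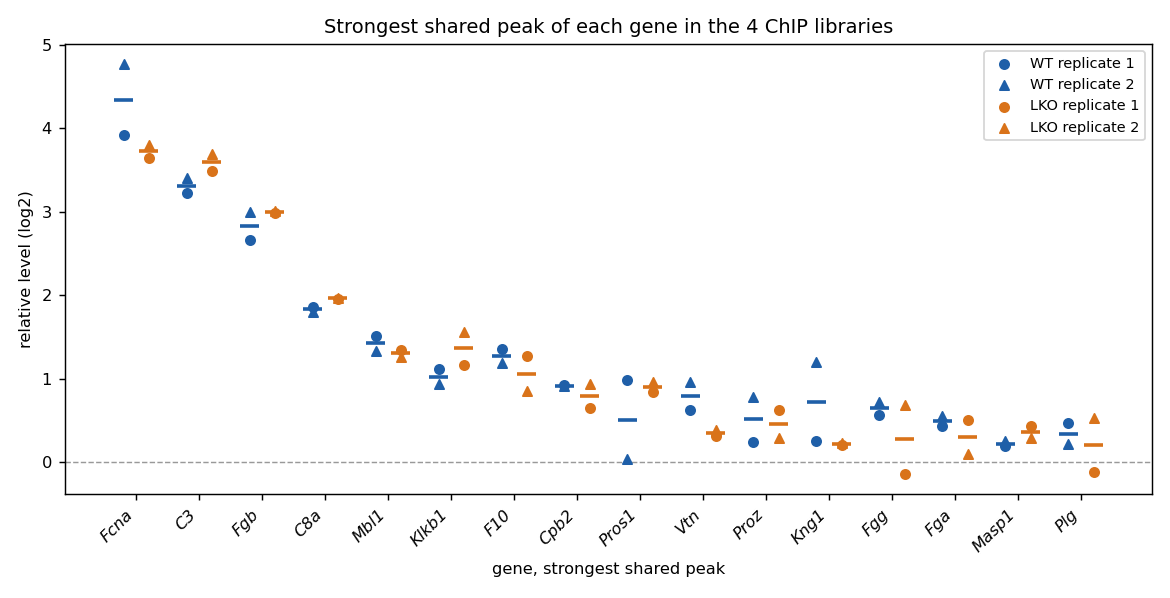
Relative level (log2) in each of the 4 ChIP libraries for the strongest shared peak of the 16 genes with the highest values. Bars are means of 2 libraries, circles and triangles are replicates 1 and 2, blue is WT and orange is LKO. Levels run from 4.34 (WT mean at Fcna) to 0.21 (LKO mean at Plg), and the gap between replicates is widest in WT at Pros1 and Kng1.

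The lectin pathway of complement starts when mannose-binding lectins or ficolins bind microbial sugars and switch on the proteases Masp1 and Masp2. Fcna (ficolin A) had 1 peak in each table and carried the strongest member peak, rank 2 of 9918 shared peaks. The authors placed it at the promoter, 858 bp upstream of the start site they used, whereas the Fcna gene of the GRCm38.p6 RefSeq annotation starts farther away, so that the peak lies 6608 bp inside it. WT stood at 3.92 and 4.77 and LKO at 3.65 and 3.8, both LKO values being lower. The WT libraries differed from each other by more than WT replicate 1 differed from either LKO library. Mbl1 (mannose-binding lectin) had 3 shared peaks, and its promoter peak stood at 1.52 and 1.33 in WT and at 1.35 and 1.27 in LKO, which overlapped. The LKO input was high at this peak, at 3.0 where the 95th percentile of LKO peaks was 2.49, and its part was not tested. The Mbl1 peak 9443 bp past the start was separated, at 0.20 and 0.08 in WT and at -0.69 and -0.25 in LKO, lower in both LKO libraries with a mean difference of -0.61. Its intron 1 peak overlapped, at 0.23 and -0.69 against 0.16 and 0.59. Masp1 had 3 WT and 2 LKO peaks, with 2 shared in intron 2. The stronger, with an IR1 match of 2 mismatches, stood at 0.19 and 0.25 against 0.43 and 0.29. Masp2 had 2 WT peaks and 1 LKO peak, and its only shared peak lies in intron 7 of 10. It stood at -0.78 and -1.34 in WT and at -0.06 and -0.54 in LKO. At this Masp1 peak and at the Masp2 peak both LKO values were higher than both WT values. Mbl2 had 3 WT-only peaks, all under percentile 39.0.

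C3 is the central complement protein that all pathways cleave. It had 3 peaks in each table, all shared. Its promoter held the second strongest member peak, centred 101 bp upstream of the start site (chr17:57228132-57228342), rank 19 of 9918. It stood at 3.23 and 3.40 in WT and at 3.49 and 3.70 in LKO, so that both LKO values were higher, by 0.28 on average. The best IR1 match there had 4 mismatches. A second C3 peak, 5514 bp upstream, had a match with 2 mismatches and lay the other way, at 0.62 and 0.22 in WT and at 0.05 and -0.09 in LKO. The third, 8046 bp upstream inside a neighbouring gene, stood at -0.78 and -0.21 in WT and at 0.00 in both LKO libraries. Cfb encodes factor B, the protease of the alternative pathway. A peak near its start, at the end of C2, stood at 0.55 and 0.42 in WT and at -0.09 and -0.17 in LKO, lower in both LKO libraries with a mean difference of -0.61. Cfb also had an LKO-only promoter peak (0.07 and -0.42). Cfi (factor I, which inactivates C3b) had 3 WT peaks and 1 LKO peak, with the shared pair in intron 1, among the weakest of the group, at -1.78 and -2.06 against -0.64 and -1.60. Cfd (factor D, made mainly by fat cells) had a single WT-only peak at percentile 11.2. It lies 6624 bp past the start site, beyond the end of Cfd, in an intron annotated to another transcript.

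The classical pathway had 8 WT peaks over 5 genes and 2 LKO peaks, at C1ra and C4b. C1ra, a protease of the C1 complex, had a shared intron 1 peak at -0.20 and 0.06 in WT and at -0.04 and 0.40 in LKO, with an IR1 match of 2 mismatches. C4b (complement C4) had a shared promoter peak at -0.61 and -1.16 against -0.73 and -0.92. Both genes have near-identical copies nearby, and how tags were assigned between the copies was not tested. C4b had 2 further WT-only peaks. C1s1 and C2 had 1 WT-only peak each, and C4bp, an inhibitor that binds C4, had 2.

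The terminal pathway builds the membrane pore from C6, C8, C9 and other proteins. C8a had 5 WT peaks and 2 LKO peaks and carried a strong shared one in intron 9 of 11 (chr4:104824709-104824919), at 1.87 and 1.80 in WT and at 1.96 and 1.97 in LKO. These 4 values lay within 0.17 of each other, and both LKO values were higher. C8b had 5 WT peaks and 1 LKO peak. Its shared peak lies inside the last exon of the neighbouring C8a, stood at 0.26 and 0.52 against -0.05 and 0.09, and had a high WT input of 2.29. C8g had 1 shared promoter peak at -0.57 and -0.96 against -0.53 and -1.14. C9, the pore-forming protein, had 4 WT-only peaks, of which the one 719 bp upstream was the strongest at -0.20 and -0.13. C6 had 1 peak in each table that did not overlap.

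Across the 41 shared member pairs, the LKO minus WT difference had a median of -0.12 (quartiles -0.44 and 0.17, range -0.87 to 0.80). Over all 9918 shared peaks the median was 0.03 (quartiles -0.32 and 0.41). The mean was higher in LKO at 15 member pairs and lower at 26. The median SD between the libraries of a genotype was 0.20 in WT and 0.23 in LKO at the member pairs. Without LKO replicate 2 the median was -0.04. Both LKO values were above both WT values at 9 of 41 member pairs (22%, 12 to 36.7%), against 29.8% of all shared peaks. Both were below at 10 (24.4%, 13.8 to 39.3%), against 25.2%. Both member intervals held the value of all shared peaks. Separated by more than 1 log2 unit were 0 of 41 member pairs (Wilson upper limit 8.57%) and 9.18% of all shared peaks.

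The split depended on the scale. Centring on the library mean gave 6 above and 15 below (14.6% and 36.6%), against 25.9% and 29.6% of all shared peaks. The deposited values without centring gave 2 above and 19 below (4.88% and 46.3%), against 12.9% and 37.3% of all. Without WT replicate 1 the counts above and below were 12 and 18 (29.3% and 43.9%), against 42.0% and 38.6% of all shared peaks. Without WT replicate 2 they were 14 and 17 (34.1% and 41.5%), against 41.1% and 35.3%. Leaving out LKO replicate 1 gave 14 and 18 (34.1% and 43.9%), against 41.0% and 35.7%. Leaving out LKO replicate 2 gave 11 and 16 (26.8% and 39.0%), against 40.2% and 36.3%. A lone library makes separation easier by construction.

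**Figure D5:**
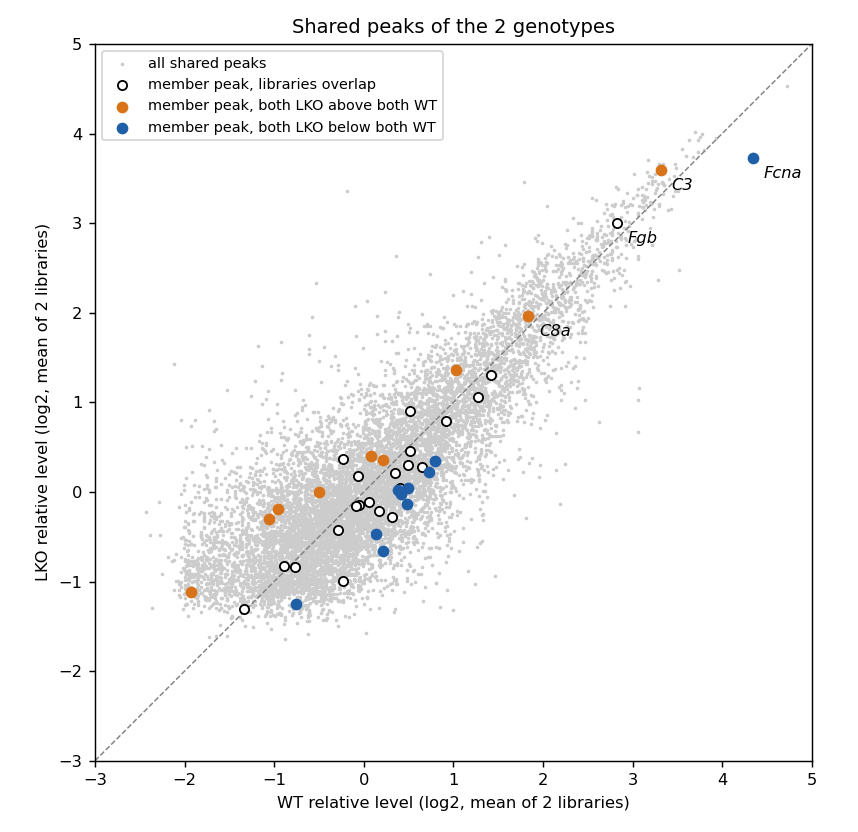
Mean relative level (log2) in LKO against WT for all 9918 shared peaks (grey) and the 41 member pairs. Orange points have both LKO values above both WT values (9 pairs), blue points both below (10 pairs), and open points overlap. Member pairs follow the dashed line of equal level inside the grey cloud, with Fcna below it and C3 above.

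The IR1 match within 100 bp of the centre with at most 2 mismatches was found in 11 of 95 member WT peaks (11.6%, 6.59 to 19.6%), against 11.8% of all WT peaks. In LKO it was 10 of 48 (20.8%, 11.7 to 34.3%), against 16.2%. Of the 41 shared member peaks, 7 held it (17.1%, against 16.6% of all shared WT peaks). Besides Fcna and Fgb these were the following sites, where capitals mark bases equal to the inverted repeat and lower case marks mismatches and the spacer.
Klkb1: AGGTCAgTtACCc
C3: AGGTCAtTccCCT
C8a: AGGTaAgTaACCT
Masp1: AGGTCAgaGAaCT
C1ra: tGGgCAcTGACCT

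The Klkb1 site lies at chr8:45281839-45281851, and the C3 site, at chr17:57233649-57233661, belongs to the upstream peak and not to the promoter. An exact AGGTCA half-site on either strand was found in 39 of 95 member WT peaks (41.1%) and in 41.0% of all WT peaks. In LKO it was 30 of 48 (62.5%, 48.4 to 74.8%) against 41.6%. Split by overlap, the WT peaks with it were 25 of 41 shared member peaks (61%, 45.7 to 74.3%), against 43.2% of all shared WT peaks. In the WT-only member peaks it was 14 of 54 (25.9%, 16.1 to 38.9%), against 38.8%. TTCNNNGAA, a palindrome like those bound by BCL6 and STAT factors, was found in 9 of 95 member WT peaks (9.47%, 5.06 to 17.0%) and in 6.90% of all WT peaks. In LKO it was 5 of 48 (10.4%, 4.53 to 22.2%) against 6.46%. The promoter peak of Vtn, the intron 1 peak of Plg and 1 intron 2 peak of Masp1 held it in both tables.

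Other genes of the same pathways were counted by a list. Of 57 such genes found in the annotation, 34 had a WT peak (59.6%), 26 an LKO peak (45.6%) and 24 an overlapping pair (42.1%). Over all genes these shares were 35.1%, 26.8% and 23.2%. On the clotting side 20 of 27 genes had a WT peak, 17 an LKO peak (63.0%) and 16 an overlapping pair (59.3%). Among these 16 were the thrombin inhibitors Serpinc1 and Serpind1 and the vitamin K enzymes Vkorc1 and Ggcx. No peak in either table was named to F13a1, F2rl3, Plat, Plau, Plaur, Procr or Tfpi. Complement had 14 of 30 with a WT peak and 9 with an LKO peak (30.0%, near the 26.8% of all genes). An overlapping pair was found at 8 (26.7%, near the 23.2% of all genes), among them Hc, which encodes C5. Complement genes with no peak in either table included C1qa, C1qb, C1qc, C7 and Cfp.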

How the data were processed

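Per the labels and methods, liver chromatin was crosslinked with DSG and formaldehyde and immunoprecipitated with FXR antibody. The authors aligned single-end reads to mm10 with Bowtie 1.2 and kept unique alignments, and used HOMER 4.10 (versions from the submitters' processing notes). Peak calling, per the file headers, ran on the 2 pooled ChIP libraries of each genotype against input, and the authors filtered the peaks with DESeq2 at an adjusted p-value of 0.05 and a log2 fold change of 1. The deposited values per library are on a log2 scale, taken as regularized log2 tags, although the headers call them tag counts. This transform draws the low values of a table together. Peak Score, as deposited, is a signal in pooled tags per 10000000. Columns with the authors' fold change and p-values of ChIP over input were not used.

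Gene names were matched to RefSeq protein-coding genes by symbol or synonym. Strength is the mean log2 value of the 2 ChIP libraries, as a percentile within its table. Sequence was read from GRCm38.p6, and 32535 of 32535 peaks lay inside its chromosomes. Computations used Python 3.11.15, pandas 2.3.3, numpy 2.4.6, scipy 1.17.1 and matplotlib 3.10.9, and overlap and motif code was tested on simulated data. Every member is named. Values in every library are given for the strongest shared peak of up to 16 genes, and sequences for IR1 matches with at most 1 mismatch, with other peaks added after their values were seen. The members and lists were chosen with earlier results of these data known. Alternatives covered overlap, strength, input, gene assignment, centring, motif settings and leaving out each library.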

Additional observations from a re-analysis of the deposited data

How the results depend on the processing

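Of 56 alternative values for 11 results, 42 stayed within 1.5 times the main count, inside the Wilson interval or within 1 SD of the replicates, and 14 moved further. Across alternatives, 27 to 39 member genes had a WT peak, 22 to 30 an LKO peak and 21 to 29 an overlapping pair. All were within 1.5 times the main counts of 39, 29 and 28. The lowest counts came when both tables kept only peaks at or above their median strength. There 22.7% of all genes had a WT peak and 17.0% an LKO peak. The share of all genes with an overlapping pair was not computed under any alternative. The share of member WT peaks overlapped by LKO was 56.0% when both tables kept only peaks at or above their median strength, and 63.3% when both were cut to the same number of peaks. With the median-strength limit the LKO share was 93.3%. Shares over all peaks were not computed under these limits, so the rise is not a result about the members. Over all WT peaks, overlap with the full LKO table was 75.5% at or above the median strength and 23.5% under it. The IR1 share of member WT peaks was 2.11% with at most 1 mismatch, against 2.46% of all WT peaks. Without centring, the median LKO minus WT difference was -0.45, where that of all shared peaks was -0.30, with 2 pairs above and 19 below. Leaving out 1 library at a time, the median strength percentile of WT peaks ranged from 50.7 to 54.4, and that of LKO peaks from 54.5 to 58.3. The median difference then ranged from -0.14 to -0.04, the pairs above from 11 to 14 and the pairs below from 16 to 18. The labels link no WT library to an LKO library, so no paired analysis was possible. Each table was normalized on its own and tests were kept within a table, so the genotype values come from no test. Low depth of WT replicate 2 limits the WT values, and gene names follow the nearest start site, not contact or regulation.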
